A study of Mus musculus with 16 samples.

Results

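Cytosolic nucleic acid sensors and adaptors are the proteins with which a cell detects RNA or DNA in its cytosol and passes that signal on. The set described here was a fixed list of 10 mouse genes, which holds the RNA sensors Ifih1 and Dhx58, the Z-form nucleic acid sensor Zbp1, the DNA-binding PYHIN family members Aim2, Ifi204 and Ifi205, the adaptor Mavs, the kinases Tbk1 and Ikbke, and the DNA exonuclease Trex1. No measured value entered the choice rule, but the 10 genes were chosen with earlier results of these data known. A gene counted as measured when a probe set of the array named it and no other gene, and the probe set with the highest mean was taken where several did. By this rule 9 of the 10 genes were measured, among 18820 genes in all, and each of the 9 had 1 such probe set. Ifi204 was not measured, because its only probe set names 2 genes.

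RNA was measured in RAW264.7 cells, an established mouse macrophage-like line that was transformed with a leukaemia virus. There were 4 conditions of 24 h, with 4 arrays each. Cells of the LPS+DHA5HT group received lipopolysaccharide (LPS, a bacterial outer membrane component that activates macrophages through Toll-like receptor 4) at 1 µg/ml together with 1 µM docosahexaenoyl serotonin (DHA5HT, an amide of the n-3 fatty acid docosahexaenoic acid with serotonin). Cells of the LPS group received LPS at 1 µg/ml and vehicle, cells of the DHA5HT group received 1 µM DHA5HT alone, and control cells received vehicle. The solvent, ethanol at 0.1% by volume, is named for the control arrays only. The labels of LPS+DHA5HT array 1 conflict: LPS appears in its title but not in its treatment entry. It was grouped by its title, and the counts of called genes of the set that rest on it are given with and without it. Over all genes it lay with the LPS-treated arrays. Its value on the first principal component was 22.7. The other LPS+DHA5HT arrays lay between 24.5 and 29.5 and the DHA5HT arrays between -33.6 and -31.0. All groups share the same line, so they describe a transformed cell line and not primary macrophages. Nothing states that arrays of a group stem from separate cultures, and the p-values therefore cover the spread between arrays only, which may be technical.

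As background, IFIH1 (MDA5) binds long double-stranded RNA, and DHX58 (LGP2) is a related helicase that lacks the signalling domains and tunes MDA5. RNA sensing runs through MAVS on mitochondria to the kinases TBK1 and IKKε, the product of Ikbke, which activate the transcription factors IRF3 and IRF7 and so type I interferon. Interferon in turn raises many of the sensors through the transcription factor complex ISGF3, which contains IRF9. AIM2 binds double-stranded DNA and assembles an inflammasome, ZBP1 couples Z-form nucleic acids to necroptosis through RIPK3, and TREX1 degrades cytosolic DNA.

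Promoter windows were searched for interferon-stimulated response elements, to which ISGF3 binds, and those of both genes with a match are shown. RefSeq windows on GRCm38.p6, from 250 bases before to 50 bases after a gene's start, were found for 7 of the 10 genes, in 8 windows. No window was matched for Dhx58, Zbp1 and Ifi204. The interferon-stimulated response element was searched on both strands as GAAA, any 2 bases and GAAA. It occurred in 2 of the 8 windows, those of Ifih1 and Ifi205, and in 3.44% of 32851 windows of the same length. The Ifih1 window is chr2:62646206-62646505 on the minus strand, with the match at bases +33 to +42 from the start. The Ifi205 window is chr1:174031706-174032005 on the minus strand, with a match at -134 to -125 and another, on the opposite strand, at +24 to +33. The Aim2 window, chr1:173420354-173420653 on the plus strand, is shown beside them as that of a gene that passed the test in no comparison. The windows of Mavs, Ikbke and Trex1, which were called higher with LPS, held no match. Dhx58 and Zbp1, also called higher, had no window to search. Whether a match goes with the LPS response was not tested. Each sequence runs 5′ to 3′ on the strand of its gene, and capitals mark a match.
Ifih1: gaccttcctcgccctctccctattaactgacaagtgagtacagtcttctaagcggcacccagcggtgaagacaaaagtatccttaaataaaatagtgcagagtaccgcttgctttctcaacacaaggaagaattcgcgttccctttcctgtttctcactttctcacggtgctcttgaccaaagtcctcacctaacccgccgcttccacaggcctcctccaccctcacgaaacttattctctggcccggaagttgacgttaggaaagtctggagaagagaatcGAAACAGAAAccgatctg
Ifi205: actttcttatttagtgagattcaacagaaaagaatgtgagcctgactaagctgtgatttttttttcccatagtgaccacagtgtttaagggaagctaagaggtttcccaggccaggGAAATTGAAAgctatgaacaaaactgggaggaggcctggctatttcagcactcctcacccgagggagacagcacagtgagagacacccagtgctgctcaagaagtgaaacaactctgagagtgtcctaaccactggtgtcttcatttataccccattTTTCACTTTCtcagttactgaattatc
Aim2: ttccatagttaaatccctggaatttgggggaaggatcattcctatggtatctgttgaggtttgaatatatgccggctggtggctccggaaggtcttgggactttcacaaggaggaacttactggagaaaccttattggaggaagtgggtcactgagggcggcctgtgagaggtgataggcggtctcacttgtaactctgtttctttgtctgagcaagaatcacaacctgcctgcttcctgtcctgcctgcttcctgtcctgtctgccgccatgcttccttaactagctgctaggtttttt
The gamma-activated sequence, searched on both strands as TTC, any 3 bases and GAA, was in 0 of the 8 windows and in 8.3% of all. An NF-κB motif, GGG, any 2 bases and TTTCC, was in 0 of the 8 and in 1.63% of all. A match describes letters in these windows and does not show that a factor binds there.

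LPS-treated arrays and the others were split by the first principal component, with 70.6% of the variance. Array 4 of the LPS+DHA5HT group stood apart on the second component (4.72% of the variance) at -22.4, where the other arrays lay between -9.36 and 10.0. All 10 macrophage markers on the list were above background. Their mean log2 level per array was 11.35 to 11.43 in LPS+DHA5HT, 11.37 to 11.47 in LPS, 10.85 to 10.98 in DHA5HT and 10.84 to 11.00 in control cells, a difference carried mainly by Adgre1, which averaged 10.73, 10.87, 7.17 and 6.93 in these groups. The 28 measured markers of other cell types had a median level of 3.62, against 5.24 for the median gene. Of these lists, that of 6 fibroblast and endothelial genes was highest in LPS cells, at 4.49 to 4.61 per array in LPS+DHA5HT, 4.68 to 4.86 in LPS, 4.40 to 4.55 in DHA5HT and 4.35 to 4.53 in control cells. The LPS+DHA5HT range overlapped that of DHA5HT cells, and most of the difference lay in Pecam1, which averaged 4.72, 5.54, 4.35 and 4.18 in these groups. The 7 measured lymphocyte genes stayed at 3.20 to 3.47 in every group. Their part in the results was not tested. In bulk RNA, fewer cells of a kind and less RNA per cell cannot be told apart.

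LPS raised most of the sensor set, and DHA5HT without LPS lowered both RNA sensors, Zbp1 and Trex1. Of the measured genes, 7 were higher in LPS than in control cells (Ifih1, Dhx58, Zbp1, Ifi205, Mavs, Ikbke and Trex1) and none was lower. In DHA5HT against control, 4 were lower (Ifih1, Dhx58, Zbp1 and Trex1) and none was higher. In LPS+DHA5HT against LPS, Ifih1 and Dhx58 were lower, by less than without LPS for Dhx58. Both of these calls lay near the threshold and were not stable. They were lost in 5 (Ifih1) and 7 (Dhx58) of the 8 fits that left out 1 array. The log2 differences in those 8 fits were -0.48 to -0.36 for Ifih1 and -0.53 to -0.43 for Dhx58. Aim2 and Tbk1 passed the test in no comparison. Calls are those of limma with a Benjamini-Hochberg adjusted p under 0.05 over the 18820 genes.

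Read against the background, 7 of 9 were higher in LPS against control, where 12.6% of all genes were called higher and 15.8% lower (with each array centred on its median, 3043 genes were higher and 2468 lower, in place of 2376 and 2970). LPS+DHA5HT against DHA5HT gave the same count, 7 of 9 higher, with 12.4% of all genes called higher. In DHA5HT against control 4 of 9 were lower, where 0.478% of all genes were called lower (0.6% in either direction). The count for LPS+DHA5HT against DHA5HT was 7 without any 1 array of these groups, array 1 of LPS+DHA5HT included. In LPS+DHA5HT against LPS 2 of 9 were lower and 0 higher, where 0.972% of all genes were called lower and 0.818% higher (1.79% in all). With the replicate number as a block this count was 3 of 9, or 2 of 9 when LPS+DHA5HT array 1 or array 4 was left out. Leaving out single arrays without the block gave 0 to 2, and 0 of 9 without LPS+DHA5HT array 1. The median log2 difference over the 9 genes was 0.95 for LPS against control, -0.05 for LPS+DHA5HT against LPS, -0.31 for DHA5HT against control and 1.29 for LPS+DHA5HT against DHA5HT. Over all genes these medians were 0.0041, 0.0020, 0.0099 and -0.0044. All 4 arrays lay above those of the other group for 6 of 9 genes in LPS against control (13.7% of all genes) and for 7 of 9 in LPS+DHA5HT against DHA5HT (12.8% of all genes). All 4 lay below for 2 of 9 in LPS+DHA5HT against LPS (3.91% of all genes) and for 5 of 9 in DHA5HT against control (2.85% of all genes, with 0 of 9 and 3.03% of all above). The comparisons share arrays: LPS against control and DHA5HT against control use the same control arrays, and the same LPS arrays serve LPS against control and LPS+DHA5HT against LPS. The set was chosen with earlier results of these data known, so its counts beside these shares describe it and test nothing.

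**Figure D1:**
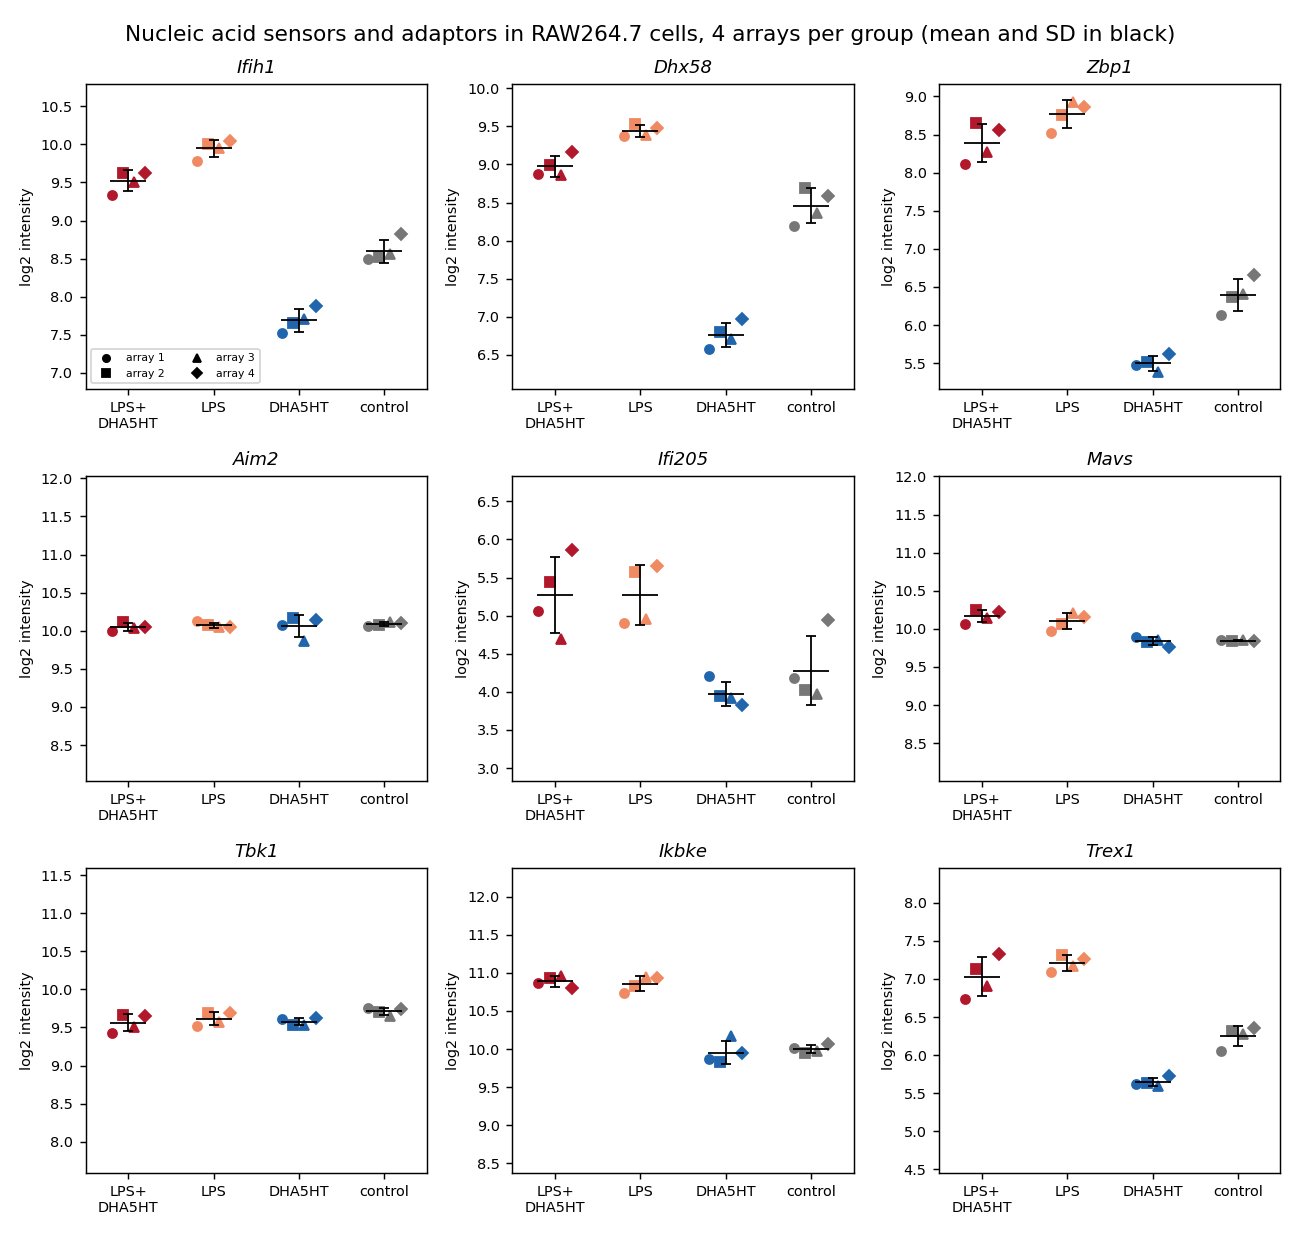
Log2 level of each of the 9 measured genes (vertical axis) on every array, for LPS+DHA5HT, LPS, DHA5HT and control cells, 4 arrays each, with black bars at the group mean ± SD and a symbol for each array number. Every panel spans 4 log2 units. Ifih1, Dhx58, Zbp1 and Trex1 sat lowest in DHA5HT cells and highest in LPS cells, while the Aim2 groups lay on top of each other.

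Ifih1, which encodes the sensor of long double-stranded RNA, was called in LPS against control, in DHA5HT against control and in LPS+DHA5HT against LPS. Its log2 levels on arrays 1 to 4 were 9.33, 9.63, 9.51 and 9.63 in LPS+DHA5HT, 9.78, 10.00, 9.96 and 10.04 in LPS, 7.52, 7.65, 7.70 and 7.88 in DHA5HT, and 8.50, 8.52, 8.56 and 8.82 in control cells. The 4 groups did not overlap, with DHA5HT lowest, then control, LPS+DHA5HT and LPS. The level averaged 9.95 ± 0.12 in LPS and 8.60 ± 0.15 in control cells (SD, n = 4 each), a 2.54-fold increase (log2 1.35, SE 0.09, limma adjusted p = 4.82e-09). DHA5HT alone lowered it 1.88-fold against control, to 7.69 ± 0.15 (log2 -0.91, SE 0.09, limma adjusted p = 3.07e-05). Its window holds 1 of the response element matches shown above, and RefSeq places a long noncoding RNA, Gm39839, over the same locus.

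In LPS-treated cells Ifih1 was 1.34-fold lower with DHA5HT than without (log2 -0.42, SE 0.09, limma adjusted p = 0.0304). With the replicate number as a block the adjusted p was 0.00172. Leaving out single arrays gave -0.48 to -0.36 with adjusted p between 0.0254 and 0.0910, and the call was kept in 3 of the 8 such fits, those without LPS array 1, without LPS+DHA5HT array 2 or without LPS+DHA5HT array 4. Without LPS+DHA5HT array 1 it was -0.36 (adjusted p = 0.0856), and with the block and without that array it was -0.41 (adjusted p = 0.00967). Without LPS+DHA5HT arrays 1 and 4, and with no block, it was -0.38 (adjusted p = 0.248).

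Dhx58, whose product LGP2 tunes MDA5, had the largest decreases with DHA5HT among the 9 genes. On arrays 1 to 4 its log2 level was 8.88, 8.99, 8.87 and 9.16 in LPS+DHA5HT, 9.37, 9.53, 9.38 and 9.48 in LPS, 6.58, 6.80, 6.71 and 6.97 in DHA5HT, and 8.19, 8.70, 8.37 and 8.59 in control cells. As for Ifih1, all 4 groups were separate, in the same order. DHA5HT cells averaged 6.76 ± 0.16 and control cells 8.46 ± 0.23 (SD, n = 4 each), a 3.24-fold decrease (log2 -1.70, SE 0.10, limma adjusted p = 1.39e-07). LPS raised Dhx58 1.98-fold over control (log2 0.98, SE 0.10, limma adjusted p = 9.93e-07).

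In LPS-treated cells Dhx58 was 1.38-fold lower with DHA5HT (log2 -0.47, SE 0.10, limma adjusted p = 0.0313), and with the replicate block the adjusted p was 0.00253. Leaving out single arrays gave -0.53 to -0.43 with adjusted p between 0.0300 and 0.0949, and the call held only without LPS+DHA5HT array 4. Without array 1 it was -0.44 (adjusted p = 0.0810), and with the block and without that array it was -0.49 (adjusted p = 0.0081). Without arrays 1 and 4, and with no block, it was -0.51 (adjusted p = 0.142). LPS+DHA5HT cells still had 4.63-fold more Dhx58 than DHA5HT cells (log2 2.21, limma adjusted p = 3.85e-11). RefSeq places the long noncoding RNA Gm38483 over this locus.

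Zbp1, the sensor of Z-form nucleic acids that engages RIPK3, had the largest LPS response of the set. On arrays 1 to 4, Zbp1 had log2 levels of 8.11, 8.65, 8.26 and 8.55 in LPS+DHA5HT, 8.52, 8.76, 8.93 and 8.87 in LPS, 5.48, 5.51, 5.38 and 5.62 in DHA5HT, and 6.14, 6.37, 6.41 and 6.65 in control cells. All LPS-treated arrays lay above all others, every DHA5HT array lay below every control array, and the groups with LPS overlapped each other. LPS raised Zbp1 5.19-fold over control (log2 2.38, SE 0.12, limma adjusted p = 1.05e-10), and DHA5HT alone lowered it 1.86-fold (log2 -0.89, SE 0.12, limma adjusted p = 0.000711). In LPS-treated cells it was 1.30-fold lower with DHA5HT (log2 -0.37, 95% interval -0.63 to -0.12) with a limma adjusted p of 0.151. With the replicate block that adjusted p was 0.0378, and with the block it was 0.115 without LPS+DHA5HT array 1 (log2 -0.34) and 0.0987 without LPS+DHA5HT array 4 (log2 -0.37).

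Among the PYHIN genes, Aim2, which encodes the DNA-binding inflammasome sensor, passed no test, and Ifi205 rose with LPS. Aim2 lay between 9.86 and 10.17 on all 16 arrays and averaged 10.05 ± 0.05 in LPS+DHA5HT, 10.07 ± 0.03 in LPS, 10.06 ± 0.14 in DHA5HT and 10.09 ± 0.02 in control cells (SD, n = 4 each). The log2 difference of LPS against control was -0.01 with a 95% interval of -0.15 to 0.12, and that of DHA5HT against control was -0.02 with an interval of -0.16 to 0.11. Its locus overlaps the coding gene Cadm3 in RefSeq, and whether the Aim2 probe set detects that transcript too was not tested.

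Ifi205 encodes another PYHIN protein. Its log2 levels on arrays 1 to 4 were 5.06, 5.44, 4.70 and 5.86 in LPS+DHA5HT, 4.90, 5.57, 4.96 and 5.65 in LPS, 4.20, 3.95, 3.92 and 3.82 in DHA5HT, and 4.19, 4.02, 3.97 and 4.94 in control cells. The cells without LPS sat near the 3.62 of the other cell type markers, and control array 4 reached into the LPS range. Because of these dim levels its folds are uncertain, and whether they are too small or too large was not tested. Ifi205 was 1.99-fold higher in LPS than in control cells (log2 0.99, SE 0.24, limma adjusted p = 0.00407). In LPS+DHA5HT cells Ifi205 was 2.45-fold higher than in DHA5HT cells (log2 1.29, limma adjusted p = 0.000437). DHA5HT against control gave -0.31 (95% interval -0.82 to 0.20, limma adjusted p = 0.743), and LPS+DHA5HT against LPS gave -0.0058 (interval -0.51 to 0.50). PYHIN genes are close paralogs, so cross-hybridization between them remains uncertain for Aim2 and Ifi205. The same limit holds for Ifi202b, Ifi203 and Ifi209, which are named below and may not be separate readings.

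Mavs, the mitochondrial adaptor of the RNA sensors, rose with LPS. The log2 levels of Mavs on arrays 1 to 4 were 10.07, 10.24, 10.15 and 10.22 in LPS+DHA5HT, 9.98, 10.06, 10.20 and 10.16 in LPS, 9.89, 9.83, 9.86 and 9.77 in DHA5HT, and 9.85, 9.84, 9.85 and 9.83 in control cells. Every LPS-treated array lay above every array without LPS. The increase was 1.19-fold over control (log2 0.26, SE 0.06, limma adjusted p = 0.00296). The effect of DHA5HT was 0.07 with LPS (95% interval -0.06 to 0.20) and -0.0082 without LPS (interval -0.13 to 0.12), and neither passed the test.

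The kinases that MAVS and STING share parted in their LPS response. Ikbke, which encodes the inducible kinase IKKε, had log2 levels on arrays 1 to 4 of 10.86, 10.93, 10.95 and 10.80 in LPS+DHA5HT, 10.73, 10.83, 10.95 and 10.93 in LPS, 9.87, 9.82, 10.17 and 9.95 in DHA5HT, and 10.01, 9.95, 9.98 and 10.07 in control cells. LPS-treated arrays and the others did not overlap, while LPS+DHA5HT overlapped LPS and DHA5HT overlapped control. Ikbke was 1.81-fold higher in LPS than in control cells (log2 0.85, SE 0.07, limma adjusted p = 8.62e-08). DHA5HT gave 0.03 with LPS (95% interval -0.13 to 0.19) and -0.05 without it (interval -0.21 to 0.11).

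Tbk1 encodes the constitutive kinase of the pair. Its levels on arrays 1 to 4, in log2, were 9.43, 9.67, 9.51 and 9.65 in LPS+DHA5HT, 9.52, 9.69, 9.57 and 9.69 in LPS, 9.61, 9.53, 9.54 and 9.62 in DHA5HT, and 9.76, 9.70, 9.65 and 9.74 in control cells. LPS against control gave -0.10 (95% interval -0.23 to 0.04, limma adjusted p = 0.308). Every DHA5HT array lay below every control array, with a log2 difference of -0.14 (95% interval -0.27 to -0.0035) and a limma adjusted p of 0.499.

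Trex1, whose product removes cytosolic DNA and so limits sensing, was higher with LPS and lower with DHA5HT alone. Trex1 log2 levels on arrays 1 to 4 were 6.74, 7.13, 6.91 and 7.32 in LPS+DHA5HT, 7.09, 7.32, 7.16 and 7.26 in LPS, 5.63, 5.63, 5.60 and 5.72 in DHA5HT, and 6.06, 6.32, 6.27 and 6.36 in control cells. The DHA5HT arrays formed a narrow group below all others. Trex1 was 1.94-fold higher in LPS than in control cells (log2 0.95, SE 0.10, limma adjusted p = 1.04e-06) and 1.52-fold lower in DHA5HT than in control cells (log2 -0.61, SE 0.10, limma adjusted p = 0.00513). In LPS-treated cells DHA5HT gave -0.18 (95% interval -0.40 to 0.04, limma adjusted p = 0.477). The locus carries the readthrough transcript Atrip-trex1 in RefSeq, which the probe set may share.

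**Figure D2:**
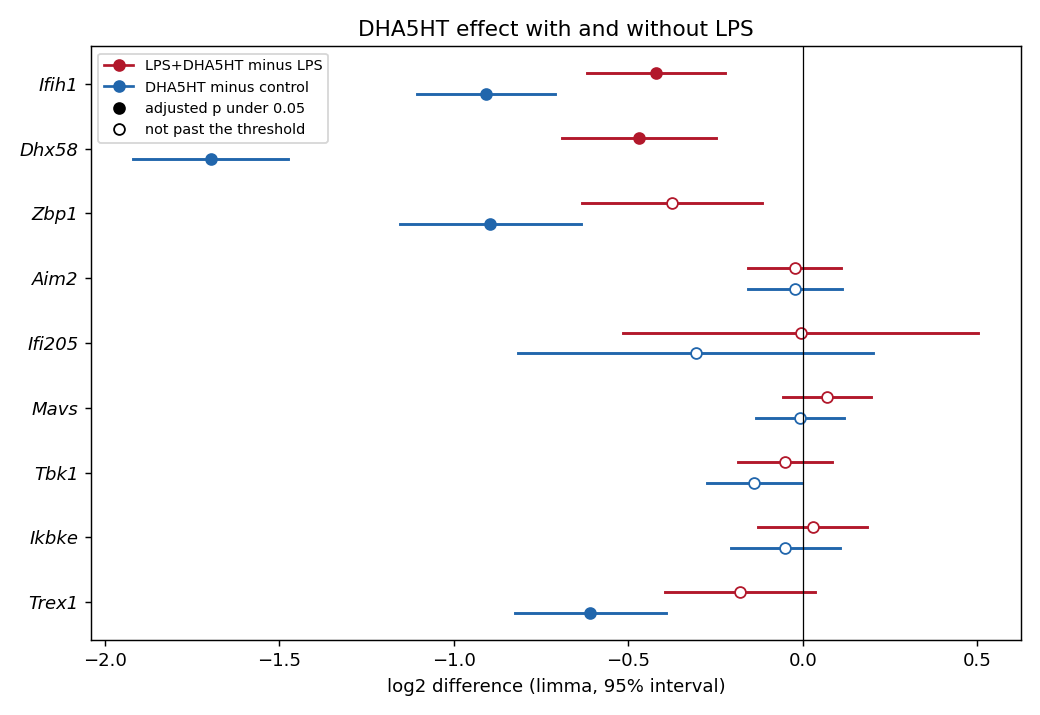
Log2 difference of LPS+DHA5HT against LPS and of DHA5HT against control for the 9 measured genes, with 95% intervals from limma. Dhx58 lay at -0.47 with LPS and at -1.70 without it, and Aim2, Mavs and Ikbke lay close to 0 in both.

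The difference between the DHA5HT effects was tested directly, as the effect with LPS minus the effect without it. Dhx58 was the only measured gene of the set to pass, at 1.23 (SE 0.15, 95% interval 0.92 to 1.54, limma adjusted p = 0.000884), where 0.165% of all genes were called in this direction and 0.329% in either. Leaving out each of the 16 arrays in turn gave 1.15 to 1.32 and kept this call. Its decrease with DHA5HT was thus smaller in LPS-treated than in untreated cells. Ifih1 gave 0.49 (SE 0.13, limma adjusted p = 0.218, or 0.0127 with the replicate block), Zbp1 0.52 (SE 0.17, adjusted p = 0.407) and Trex1 0.43 (SE 0.14, adjusted p = 0.418). The other 5 lay between -0.00062 and 0.30, with adjusted p from 0.893 up. The same values stated the other way are the LPS responses, which rest on separate arrays: Dhx58 rose 4.63-fold in LPS+DHA5HT over DHA5HT cells and 1.98-fold in LPS over control cells. For Ifih1 these were 3.56-fold and 2.54-fold, for Zbp1 7.45-fold and 5.19-fold, and for Trex1 2.61-fold and 1.94-fold.

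**Figure D3:**
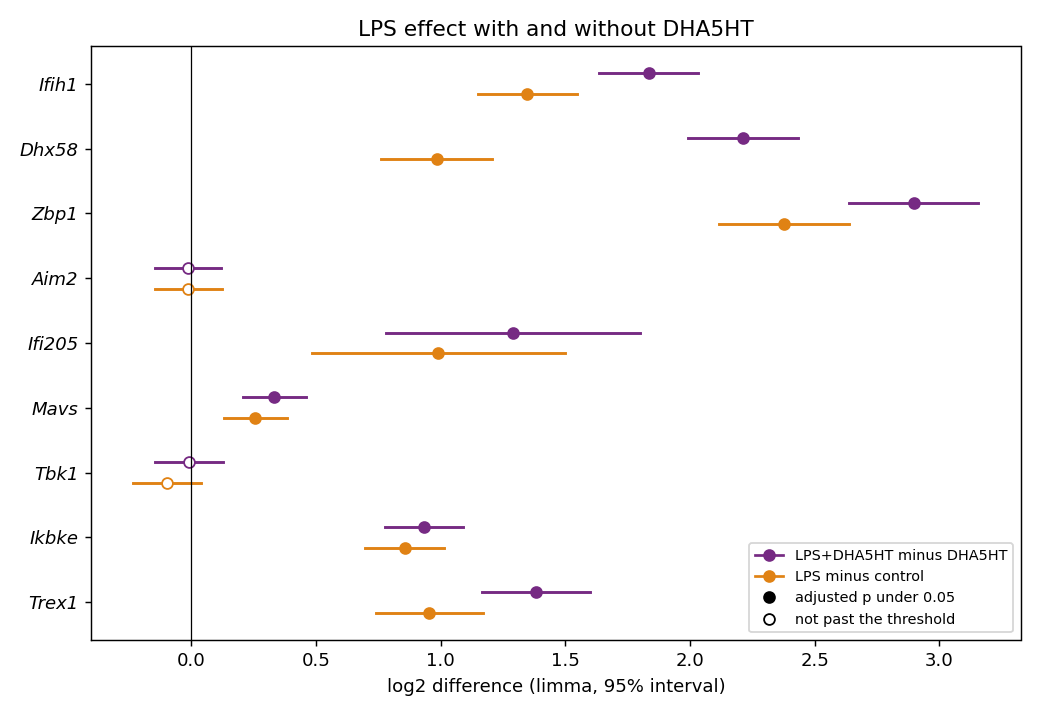
Log2 LPS response of the 9 measured genes in the presence of DHA5HT (LPS+DHA5HT against DHA5HT) and in its absence (LPS against control), with 95% intervals from limma. Zbp1 gave 2.90 with DHA5HT and 2.38 without it, and Aim2 and Tbk1 lay near 0 in both.

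Other genes of nucleic acid sensing were taken from 7 lists with 76 genes, of which 63 were measured. Irf7, the interferon-induced transcription factor of this pathway, was 2.21 log2 lower in DHA5HT than in control cells (6.70 ± 0.34 against 8.91 ± 0.34, SD, n = 4 each, limma adjusted p = 2.02e-06). With it fell Ddx58, which encodes the RNA sensor RIG-I (log2 -1.21, adjusted p = 4.72e-05), and Irf9, the DNA-binding part of ISGF3 (log2 -0.75, adjusted p = 0.00017). The PYHIN genes Ifi202b (-1.02, adjusted p = 0.00253) and Ifi203 (-0.70, adjusted p = 0.00245) fell as well, as did Eif2ak2, which encodes the RNA-activated kinase PKR (-0.56, adjusted p = 0.0144), Adar, the editor of double-stranded RNA (-0.50, adjusted p = 0.00104), and Samhd1, a hydrolase of DNA building blocks (-0.25, adjusted p = 0.0393). These 8 were all lower, of 63 measured, and 0 were higher, where 0.478% of all genes were called lower and 0.122% higher. The median of the 63 was -0.04. The Samhd1 call was lost when any 1 array was left out (adjusted p 0.0636 to 0.147), and the Eif2ak2 call without DHA5HT array 1 or 2 or control array 4. With the replicate block 10 genes passed, with Stat2 (-0.50, adjusted p = 0.0114) and Ticam1 (-0.36, adjusted p = 0.0336) added.

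**Figure D4:**
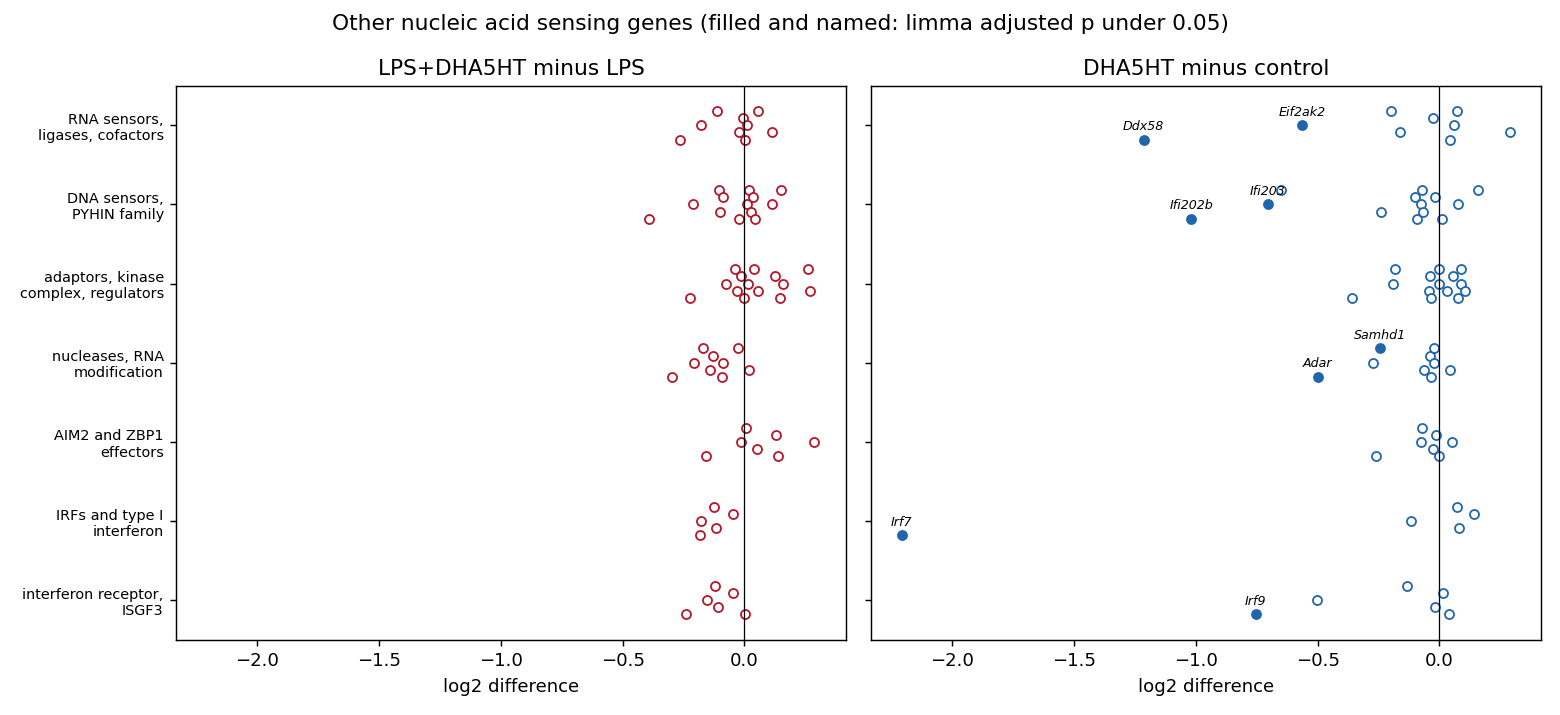
Log2 difference of LPS+DHA5HT minus LPS (left panel) and of DHA5HT minus control (right panel) for the 63 measured pathway genes outside the set, 1 point per gene, with the 7 lists down the page. Filled, named points passed the limma threshold, 8 genes in the right panel and 0 in the left. Vertical scatter within a list has no meaning.

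In LPS-treated cells no gene of these lists passed for DHA5HT (limma, 0 of 63, with 5 higher and 8 lower at an unadjusted p under 0.05), where 1.79% of all genes were called and, at that unadjusted p, 1303 of 18820 were higher and 1267 lower. With the replicate block Trim25, an E3 ligase of RIG-I, passed at -0.26 (adjusted p = 0.0120). The difference between the DHA5HT effects passed for Irf7 (2.03, adjusted p = 0.000884), Ddx58 (1.10, adjusted p = 0.0107) and Irf9 (0.63, adjusted p = 0.0434). With the replicate block 5 genes passed, with Irf9 at an adjusted p of 0.00312 and with Ifi202b (1.04, adjusted p = 0.00295, or 0.0643 without the block) and Ifi203 (0.60, adjusted p = 0.0219, or 0.166 without the block) added. Without the block, the Irf9 call was lost after quantile normalization of the table (adjusted p = 0.0512), after centring (0.0599) and with array weights (0.0633), and in 12 of the 16 fits that left out 1 array. With all probe sets in the fit neither Irf9 (adjusted p = 0.157) nor Ddx58 (0.0576) passed. For Irf7 the DHA5HT effect was -0.18 with LPS and -2.21 without it, and for Ddx58 it was -0.11 and -1.21.

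LPS against control moved these lists in both directions, with 18 of the 63 higher and 15 lower, where 12.6% of all genes were called higher and 15.8% lower. With each array centred on its median, 22 were higher and 13 lower. Among RNA sensors and their cofactors, Trim25 (log2 0.71), Rnf135 (0.70) and Ddx58 (0.67) rose, and the helicase Dhx9 fell by 0.55. Among DNA sensors and PYHIN genes, 3 of the 13 measured were higher and 6 lower. Ifi209 (2.26) and Ifi202b (1.41) rose, and the chromatin protein genes Hmgb1 and Hmgb2 fell by 0.38 and 0.58. The DNA sensor gene Cgas, picked after its values were seen, was lower as well (log2 -0.28, limma adjusted p = 0.00882). Its value in the fits that left out 1 array is not given here. Downstream of the sensors, Azi2, which scaffolds TBK1, rose by 0.18, while Fadd, Nlrc3 and Rnf5 fell by 0.61, 0.72 and 0.27. Among effectors, Mlkl, the executioner of necroptosis, rose by 1.06, Ripk3 by 0.41 and Casp1 by 0.37, and Pycard fell by 0.28. Of the nucleases and RNA modifying enzymes, Samhd1 rose by 0.41 and Adar by 0.33, and the ribonuclease H2 subunit genes Rnaseh2b and Rnaseh2c fell by 0.67 and 0.34. Irf7 rose by 2.02, and the interferon signalling genes Stat2 and Tyk2 by 0.64 and 0.23. Limma adjusted p for these genes ran from 5.57e-08 (Irf7) to 0.0308 (Azi2). The calls of Azi2, Tyk2 and Rnaseh2c were lost in 5, 1 and 2 of the 8 fits that left out 1 array. The interferon gene Ifna4 passed the test as well (adjusted p = 0.0168), but at 3.20 in LPS and 2.92 in control cells it was at background, below the 3.62 of the other cell type markers, and its call was lost in 2 of the 8 fits. Ifnb1, which encodes interferon beta and was picked after its values were seen, was also at background, at 3.43 in LPS and 3.27 in control cells.

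The genes whose group differences lay nearest to those of each sensor were found by the root mean square log2 distance over the DHA5HT, LPS and LPS+DHA5HT means, each taken against control. Predicted genes, microRNAs and genes with only a clone or locus name were left out of this search. Ifih1 lay nearest to Ddx60, another helicase induced by interferon, at 0.0194, and then to Gbp9, a guanylate-binding protein, at 0.123. Dhx58 lay nearest to the interferon-induced Mx2 at 0.205 and to Xaf1 at 0.243. Zbp1 lay nearest to Ccrl2 at 0.169 and Ifi209 at 0.174, Trex1 to Slfn2 at 0.0475 and Sh2d6 at 0.0805, and Ikbke to Inpp5b at 0.0249 and the chemokine gene Ccl3 at 0.0288. Ifi205 lay nearest to Klra2 at 0.0533 and Fas at 0.0744, and Mavs to Kmt5a at 0.0079 and Mccc1 at 0.0107. Tbk1 lay nearest to Lrit2 at 0.0072 and Bcas1 at 0.0093, and Aim2, with all its differences near 0, to Cd3e and Mpi at 0.0029 each. Genes with small differences lie close together by this measure. Distances of genes that moved and genes that did not are therefore not comparable. Cd3e, one of the lymphocyte markers, was at background, with group means of 3.64 to 3.68. These distances describe 4 group means, and all 3 differences share the control arrays.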

How the data were processed

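The deposited values are log2 expression levels that the authors made with RMA, per the submitters' processing notes, which corrects background, normalizes between arrays and gives 1 value per probe set. The version, the array annotation and any filter are not given in the sources used here. The table holds 35556 probe sets on 16 arrays of 100 ng total RNA each, with values from 1.20 to 13.68 and array medians from 4.58 to 4.67. Since the values are array signals, the number of arrays (4 per group) limits the precision.

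A single gene was named by 21218 of these probe sets, more than 1 gene by 1881, and no gene by 12457. The probe set with the highest mean over 16 arrays was taken per gene, which left 18820 genes. Groups followed the titles. limma 3.58.1 in R 4.3.3 fitted the 4 group means over all 16 arrays (lmFit and eBayes, 12 residual degrees of freedom, two-sided), with Benjamini-Hochberg adjustment over the 18820 genes in each of 5 comparisons and a threshold of 0.05. The fit was tested on simulated data with noise drawn independently for each array. That test therefore does not cover links between arrays of the same replicate number. Plots used Python 3.11.15 and matplotlib 3.10.9. The log2 differences are the first-named group minus the second. No genome build is named for the values, so positions are given only for the RefSeq promoter windows.

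The replicate numbers were checked for pairing by correlating the deviations of same-numbered arrays from their group means. Every pair was over 0.1 for LPS+DHA5HT against LPS (0.116 to 0.205) and for DHA5HT against control (0.131 to 0.183), but not for LPS against control (0.0995 to 0.131) or LPS+DHA5HT against DHA5HT (0.0699 to 0.232). LPS+DHA5HT array 4 correlated at 0.116 with the LPS array of its own number but at 0.127 with another, so pairing was not shown for it. The other arrays of the comparisons LPS+DHA5HT against LPS and DHA5HT against control correlated most with their own number. For the comparisons where every pair was over 0.1, and for the difference between the DHA5HT effects, values with this number as a block stand beside the results they change. For the others they are in the closing section.

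The 10 genes and the pathway and marker lists were chosen with earlier results of these data known, and so were the tests. Named are all members, from each pathway list up to 4 genes with the smallest p among those past the threshold for LPS and up to 3 for each DHA5HT comparison, every pathway gene past the threshold in the difference between the DHA5HT effects, and the 2 genes nearest to each member. Predicted genes and microRNAs were left out of the search for near genes. Alternatives were the replicate block, an intensity trend, a filter on dim genes, quantile normalization again, centring on the array median, all probe sets, the lowest-mean probe set, array weights, only the compared arrays, and leaving out arrays.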

Additional observations from a re-analysis of the deposited data

Results flagged for a closer look

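The effect of DHA5HT in LPS-treated cells differed from its effect in untreated cells, by the tested difference of the differences, for Dhx58 (1.23 on the log2 scale), Irf7 (2.03), Ddx58 (1.10) and Irf9 (0.63), each a smaller decrease with LPS than without. The Dhx58 value lay between 1.15 and 1.32 over the 16 fits that left out 1 array, with limma adjusted p from 0.000696 to 0.00394. The Irf9 call was lost in 12 of them. No array of the 36 gene and group combinations stood apart by the 4-array range criterion, which chance would meet in about 1 in 20.

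Probe set 10360382, the only one that names Ifi204, also names Ifi211 and so entered no comparison, and its signal cannot be assigned to either gene. It was 1.40 log2 higher in LPS than in control cells (means 10.02 and 8.62, limma adjusted p = 3.25e-06 over all probe sets). In LPS+DHA5HT cells its mean was 9.89, against 10.02 in LPS cells, and in DHA5HT cells it was 7.89, a log2 difference of -0.73 against control (limma adjusted p = 0.0433).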

How the results depend on the processing

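Counts below are genes past the threshold. LPS against control and LPS+DHA5HT against DHA5HT kept 7 genes of the set in every alternative that held Ifi205, and DHA5HT against control kept 4. The filter on dim genes removed Ifi205, 1 of those 7, because its mean of 4.70 lay below the median gene at 5.24. The rest of the 7 kept their calls under that filter. For DHA5HT against control, over all genes, the replicate block gave 179 in place of 113. For LPS+DHA5HT against LPS, genes of the set numbered 0 with all probe sets, 1 with only the compared arrays and 0 with LPS+DHA5HT arrays 1 and 4 both left out, and 0 to 2 over the fits leaving out 1 array. Pathway genes there numbered 1 with the block, 1 with an intensity trend, 2 among genes above the median gene, 1 with the block and array 1 left out, 1 with the block and array 4 left out, and 0 to 1 leaving out 1 array. Over all genes the counts were 647 (block), 557 (genes above the median gene), 139 (all probe sets), 86 (only the compared arrays), 41 (arrays 1 and 4 out) and 143 to 289 (1 array out), against 337. Centring split these as 110 higher and 216 lower in place of 154 and 183. For the difference between the DHA5HT effects, genes of the set numbered 2 with the block, also without array 1 or 4; pathway genes numbered 5 with the block, 1 with all probe sets, 6 with the block and array 1 out and 5 with the block and array 4 out; and over all genes there were 96 (block), 28 (all probe sets), 36 (arrays 1 and 4 out) and 34 to 62 (1 array out), against 62. Beside the calls given in the report, the block added Ikbkg for LPS against control (adjusted p = 0.0177) and Rnf5 for LPS+DHA5HT against DHA5HT (0.0481) and changed no other call of a member or pathway gene. Of 1528 values of single genes, 1466 kept direction and side, 58 lost a call, 4 gained one and 0 reversed. The choice of arrays 1 and 4 was made after seeing the data. The cause of these shifts was not tested. The dimmest gene, Ifi205, is limited by its low signal.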
